A study of Mus musculus with 12 samples.

Results

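Genes for fatty acid uptake and binding were examined in inguinal white adipose tissue (iWAT) of mice kept at thermoneutrality (TN) or in the cold. They were chosen by symbol and comprise Cd36, the fatty acid binding protein genes Fabp3, Fabp4 and Fabp5, and the 6 fatty acid transport protein genes Slc27a1 to Slc27a6. These are 10 of the 23420 genes in the count table, and all 10 passed the filter on low counts that left 15306 genes for testing. The 12 RNA-seq libraries came from male C57BL/6 mice aged 10 weeks, which formed 4 groups of 3. WT mice had HIF2a loxP/loxP alleles. HIF2α AKO mice carried the same alleles with Adipoq-Cre, which is driven by the adiponectin promoter and acts in adipocytes of all depots, so that other cells of the tissue keep the gene. The transgene and the deletion came together in every AKO mouse and cannot be told apart. TN groups were held at 30 °C for 1 week and cold groups at 4 to 6 °C for 3 days. The comparisons ask how the 10 genes differed between cold and TN within each genotype, between genotypes at each temperature, and whether the cold response differed between genotypes.

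Long-chain fatty acids reach adipocytes bound to albumin or released from lipoproteins in the capillary. CD36 is the membrane glycoprotein that binds them at the surface of endothelial cells and adipocytes. The SLC27A proteins, also called FATP, are membrane proteins that join uptake to activation of fatty acids to acyl-CoA. FABP proteins carry fatty acids through the cytosol, to lipid droplets, to the nucleus and to the mitochondria. In thermogenic fat, fatty acids fuel uncoupled respiration and activate UCP1, and FABP3, the form best known from heart and skeletal muscle, is also abundant in brown fat.

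Libraries held between 22368316 and 35204631 counts on genes. All 8 adipocyte markers (Adipoq, Plin1, Lipe, Pnpla2, Cfd, Lep, Retn, Cidec) were detected in every group, and their summed level ran from 9939 CPM (counts scaled to library size by TMM) in TN WT mouse 2 to 31104 CPM in cold WT mouse 3. The summed level of 12 skeletal muscle markers was 1982 CPM in TN AKO mouse 2 and 1722 CPM in cold AKO mouse 1, against 14.5 to 116 CPM in the other 10 libraries. A sum of 10 epithelial markers was 230 CPM in TN WT mouse 3 and at most 11.8 CPM elsewhere. Epas1, which encodes HIF2α, lay between 743 and 985 CPM in the libraries labelled cold AKO and between 562 and 743 CPM in cold WT, and between 289 and 394 CPM in TN AKO and 278 and 430 CPM in TN WT. The count over the whole gene does not resolve the loxP-flanked part, so genotypes are given as labelled.

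Cold housing was accompanied by higher mRNA of most of these genes in both genotypes. Of the 10 genes, 6 passed the test in cold WT against TN WT, all higher, where 21.3% of all tested genes were called in either direction and 15.6% were called higher. The same number, 6 of 10 and all higher, passed in cold AKO against TN AKO, where 27% of all tested genes were called and 15.6% were called higher. Fabp3, Fabp4, Fabp5, Slc27a1, Slc27a2 and Slc27a4 were the genes called in each genotype. The median log2 fold change of the 10 genes was 1.33 in WT and 1.13 in AKO, and that of all tested genes was −0.03 and −0.05. Calls rest on quasi-likelihood tests in edgeR, with p-values adjusted by Benjamini-Hochberg over all tested genes and a limit of 0.05. In bulk tissue, fewer cells of a type and less RNA per cell cannot be told apart.

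Markers of several cell types also differed between cold and TN. Among all tested genes, 21.3% were called in WT and 27% in AKO. Higher calls took 15.6% of tested genes in each genotype. They were 2389 of the 3259 called genes in WT and 2381 of 4138 in AKO, and the other called genes were lower. Of the 8 adipocyte markers, 3 were called higher in WT (median log2 fold change 0.94) and 1 in AKO (median 0.67), and of the 8 thermogenic markers (Ucp1, Dio2, Ppargc1a, Elovl3, Cidea, Cox7a1, Cox8b, Prdm16) 7 and 8 were called higher. Of 9 tested macrophage markers, none was called in WT (median −0.03) and 3 were called lower in AKO (median −0.67), with sums of 2731 to 2913 CPM in TN AKO and 1578 to 1809 CPM in cold AKO. Of 8 lymphocyte markers, 1 was called lower in WT and 2 in AKO (medians −0.65 and −0.69). The part of these markers in the values of the 10 genes was not tested.

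**Figure D1:**
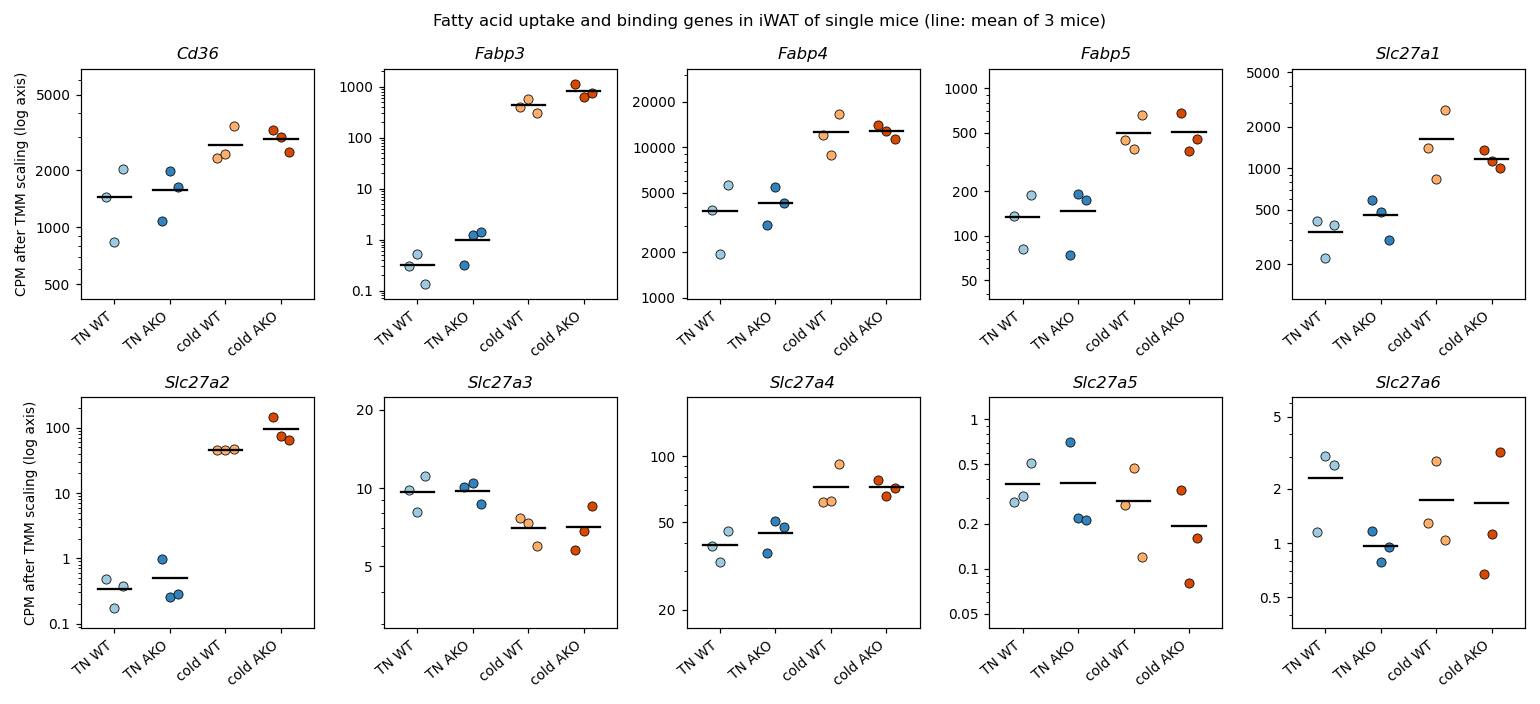
CPM of each gene (log axis, its own range in every panel) in single mice of the 4 groups, with the mean of 3 mice as a line. Fabp3 and Slc27a2 sit near or below 1 CPM in the TN mice and at 308 to 1134 CPM and 45.4 to 146 CPM in the cold mice.

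Cd36, the surface receptor, followed Fabp4 in mean level per length in both WT groups. Its level in mice 1, 2 and 3 was 1437, 837 and 2037 CPM in TN WT and 2322, 2418 and 3428 CPM in cold WT. In TN AKO it was 1082, 1983 and 1623 CPM and in cold AKO 3263, 3000 and 2479 CPM. Every cold mouse lay above every TN mouse of its genotype, and the lowest level of all was in TN WT mouse 2. The fitted log2 fold change was 0.92 (SE 0.32, adjusted p = 0.0638, edgeR) in WT and 0.90 (SE 0.32, adjusted p = 0.0596) in AKO, so the gene missed the limit in both. It passed with DESeq2 in both, at adjusted p = 0.0169 and 0.0151. Cd36 lies at chr5:17781690-17888801 on the minus strand (GRCm38, as are all positions given here).

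Fabp4 encodes the adipocyte fatty acid binding protein, a cytosolic carrier that makes up much of the soluble protein of fat cells. It was at 3803, 1959 and 5577 CPM in TN WT, 3029, 5428 and 4283 CPM in TN AKO, 12045, 8932 and 16665 CPM in cold WT, and 14136, 12789 and 11280 CPM in cold AKO. All 6 cold mice exceeded all 6 TN mice. The gene alone took 0.235 to 0.596% of the gene counts of TN WT libraries, 0.885 to 1.38% of those of cold WT and 1.04 to 1.20% of those of cold AKO. The rise was 3.32-fold in WT (log2 1.73, SE 0.40, adjusted p = 0.0125, edgeR) and 3.00-fold in AKO (log2 1.58, SE 0.39, adjusted p = 0.0156). Without TN AKO mouse 1 or without cold AKO mouse 1, the AKO call was lost at adjusted p = 0.0667 and 0.0562 (edgeR). The WT call was lost with edgeR on the TN WT and cold WT libraries alone (log2 1.73, adjusted p = 0.0588).

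Fabp5, the epidermal form, which is also found in adipocytes, endothelium and macrophages, had 135, 80.6 and 188 CPM in TN WT and 74.4, 191 and 175 CPM in TN AKO. In cold it had 444, 390 and 665 CPM in WT and 682, 377 and 455 CPM in AKO. Cold and TN mice did not overlap in either genotype. Its rise was 3.71-fold in WT (log2 1.89, SE 0.40, adjusted p = 0.0093, edgeR) and 3.44-fold in AKO (log2 1.78, SE 0.40, adjusted p = 0.0105). TN WT mouse 3, which had the epithelial markers, was the highest TN WT mouse for Fabp5, and the part of epithelium in that value was not tested. Fabp4 (chr3:10204088-10208576, minus strand) and Fabp5 (chr3:10012548-10016607, plus strand) belong to a cluster of 5 FABP genes within 289 kb. The other members of the cluster, Pmp2, Fabp9 and Fabp12, had at most 13 counts in any library. Of the FABP genes elsewhere, Fabp1 of liver had 7 to 30 counts, Fabp7 of brain 8 to 28, and Fabp2 and Fabp6 of the intestine at most 2.

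Fabp3, the heart form, changed most. TN WT mice 1, 2 and 3 had 0.305, 0.514 and 0.136 CPM, which are 12, 15 and 4 counts. TN AKO mice had 0.312, 1.26 and 1.41 CPM, from 8, 40 and 40 counts. Cold WT mice had 405, 580 and 308 CPM and cold AKO mice 1134, 632 and 737 CPM. The gene thus had at most 40 counts in any TN mouse and at least 7669 counts in every cold mouse. It rose 1339-fold in WT (log2 10.39, SE 0.59, adjusted p = 2.0e-05, edgeR) and 822-fold in AKO (log2 9.68, SE 0.55, adjusted p = 1.5e-05). By p-value it ranked 1 of 15306 genes in WT and 2 in AKO, and by fold it ranked 2 and 5. These folds rest on few TN counts, and the log2 fold change ran from 10.06 to 10.82 in WT and from 9.28 to 10.00 in AKO as single libraries were left out.

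Skeletal muscle is a known site of Fabp3. TN AKO mouse 2, with a muscle marker sum of 1982 CPM, had 1.26 CPM of Fabp3, and TN AKO mouse 3, with a muscle sum of 38.9 CPM, had 1.41 CPM. The 3 cold WT mice had muscle sums of 14.5 to 16.4 CPM and Fabp3 levels above 300 CPM. Cold AKO mouse 1, with a muscle sum of 1722 CPM, had the highest Fabp3, at 1134 CPM. The part of muscle in the Fabp3 values was not tested. Fabp3 lies at chr4:130308595-130315463 on the plus strand. Its exons share 81 bases with Zcchc17 and 80 bases with Gm10570, both on the opposite strand. The strand setting of the counting is not given in the sources used here, so reads in shared bases cannot be assigned with certainty.

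Slc27a1 encodes FATP1, the insulin-responsive transporter of adipocytes and muscle. Its levels were 410, 223 and 389 CPM in TN WT, 587, 478 and 299 CPM in TN AKO, 1395, 839 and 2664 CPM in cold WT, and 1352, 1134 and 1008 CPM in cold AKO. All cold mice were above all TN mice, and cold WT mouse 3 stood far above the rest. The rise was 4.79-fold in WT (log2 2.26, SE 0.41, adjusted p = 0.00435, edgeR) and 2.56-fold in AKO (log2 1.36, SE 0.40, adjusted p = 0.0305). The AKO call was lost without any one of the TN AKO mice or of cold AKO mice 1 and 2, with adjusted p between 0.0536 and 0.102 (edgeR). The gene lies at chr8:71568882-71587302 on the plus strand.

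Slc27a2 encodes FATP2, a very long-chain acyl-CoA synthetase best known from liver and kidney peroxisomes and endoplasmic reticulum. It had 0.484, 0.171 and 0.375 CPM in TN WT (19, 5 and 11 counts) and 0.974, 0.251 and 0.283 CPM in TN AKO (25, 8 and 8 counts). Cold WT mice had 46.2, 45.4 and 47.4 CPM and cold AKO mice 146, 73.8 and 64.7 CPM. The 3 cold WT mice were nearly equal, while the cold AKO mice were spread and all above them. The rise was 129-fold in WT (log2 7.01, SE 0.49, adjusted p = 3.6e-05, edgeR) and 194-fold in AKO (log2 7.60, SE 0.48, adjusted p = 1.8e-05), rank 7 and rank 5 of all tested genes by p-value. Slc27a2 lies at chr2:126552407-126588243 on the plus strand. Its exons share 419 bases with Gm26697, a noncoding RNA gene on the opposite strand that is absent from the count table. Reads in those bases cannot be assigned with certainty, as for Fabp3. The summed level of 6 liver markers was 4.86 to 18.7 CPM in TN libraries and 19.6 to 61.1 CPM in cold libraries, without overlap. Of the 3 that were tested, 1 was called higher in each genotype (median log2 fold change 1.32 in WT and 1.31 in AKO). Among all tested genes, 15.6% were called higher in each. The part of these markers in the Slc27a2 values was not tested.

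Promoter windows of the 2 genes with the largest changes are shown because both went from low counts in TN to clear expression in cold. Their log2 CPM had a Pearson r of 0.97 over the 12 libraries, and of −0.57 with group means removed. The second value rests in part on TN libraries with 4 to 40 counts of Fabp3 and 5 to 25 of Slc27a2. It therefore does not show whether the 2 genes vary together or apart within groups. Each RefSeq window (GRCm38.p6) holds 250 bases before and 50 bases from a start annotated by RefSeq, in the direction of transcription. For these 2 genes that start is not the 5′ end of the gene span given above. The whole Slc27a2 window and part of the Fabp3 window lie inside those spans. Motif positions are relative to the RefSeq start, so a negative position need not lie upstream of the gene span. Fabp3 is shown at chr4:130308488-130308787 and Slc27a2 at chr2:126552774-126553073, both on the plus strand. Capitals mark the motif matches found on either strand.
Fabp3: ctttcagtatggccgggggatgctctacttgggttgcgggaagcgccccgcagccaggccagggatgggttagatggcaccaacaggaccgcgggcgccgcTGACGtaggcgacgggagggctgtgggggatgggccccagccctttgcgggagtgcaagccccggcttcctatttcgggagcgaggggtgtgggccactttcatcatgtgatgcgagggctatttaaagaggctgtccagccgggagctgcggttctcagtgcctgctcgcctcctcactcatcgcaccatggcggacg
Slc27a2: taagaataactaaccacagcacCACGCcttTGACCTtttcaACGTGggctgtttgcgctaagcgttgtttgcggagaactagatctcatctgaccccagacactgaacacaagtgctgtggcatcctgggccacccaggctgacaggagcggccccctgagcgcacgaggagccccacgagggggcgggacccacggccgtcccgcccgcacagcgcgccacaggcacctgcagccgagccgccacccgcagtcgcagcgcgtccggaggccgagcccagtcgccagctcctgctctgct
The Fabp3 window held 1 match to TGACG, the core of the cAMP response element, with its first base at −149 from the start. The Slc27a2 window held 1 match to AGGTCA, a single nuclear receptor site, at −220, on the minus strand, and 2 matches to the hypoxia response element core ACGTG or GCGTG, at −228 and −209. These letters are common. TGACG occurred in 20.8% of 32851 promoter windows of this length, AGGTCA in 16.3% and the hypoxia core in 43.8%. Neither window held the PPAR direct repeat, AGGTCA repeated after 1 base (0.0396% of windows). Neither held the full cAMP element TGACGTCA (1.79%, and it includes TGACG) or TATAAA, the letters searched as the TATA box (13.6%). The CCAAT box, which 37.4% of windows held, was also absent from both. Only exact letters were searched, so variants of them, such as other letters like a TATA box, were not counted. Windows were also searched for Cd36, Slc27a1, Slc27a3 and Slc27a4, so that 6 of the 10 genes were matched. Cd36 had 1 AGGTCA at −228, in a window that also lies inside its gene span. The hypoxia core had 3 matches in the Slc27a3 window and 3 in 1 of the 3 windows of Slc27a1, which lies inside the gene span. Those of Slc27a1 began at −202, −201 and −25, and the matches at −202 and −201 overlap as 1 site read on both strands. A CCAAT box was found once in the windows of Cd36 and Slc27a3 and in 2 of those of Slc27a1, and the Slc27a4 window held no match. Fabp4, Fabp5, Slc27a5 and Slc27a6 were not matched. A match of letters is not a binding site.

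Slc27a4 encodes FATP4, an acyl-CoA synthetase of the endoplasmic reticulum found in many tissues. It was at 38.8, 33.0 and 45.6 CPM in TN WT, 36.0, 50.6 and 47.3 CPM in TN AKO, 61.9, 62.2 and 92.4 CPM in cold WT, and 78.2, 65.7 and 71.9 CPM in cold AKO. Cold mice lay above TN mice without overlap. The rise was 1.84-fold in WT (log2 0.88, SE 0.18, adjusted p = 0.0084, edgeR) and 1.61-fold in AKO (log2 0.69, SE 0.18, adjusted p = 0.0209), and the AKO call was lost without TN AKO mouse 1 or without cold AKO mouse 1 (adjusted p = 0.0873 and 0.0832).

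Slc27a3, a family member best described as an acyl-CoA synthetase, was the only one of the 10 with every cold mouse below every TN mouse of its genotype. It had 9.85, 8.08 and 11.1 CPM in TN WT, 10.1, 10.4 and 8.66 CPM in TN AKO, 7.70, 7.35 and 5.99 CPM in cold WT, and 5.81, 6.83 and 8.57 CPM in cold AKO. The gap between the groups was narrow, 8.57 against 8.66 CPM in AKO. Its log2 fold change was −0.47 (SE 0.18, adjusted p = 0.0808, edgeR) in WT and −0.46 (SE 0.18, adjusted p = 0.0766) in AKO, short of the limit. Counting all 10 genes, 7 had all cold mice above all TN mice in each genotype and 1 had all below, where 22.7% of tested genes were above and 19.3% below in WT, and 24.9% and 25.6% in AKO.

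Slc27a5, the bile acid-CoA ligase of liver, and Slc27a6, the transporter best known from heart, were barely expressed. Slc27a5 had 2 to 18 counts per library, between 0.0804 and 0.701 CPM. Slc27a6 had 14 to 89 counts, between 0.678 and 3.20 CPM. Cold and TN mice overlapped for both genes in both genotypes. The log2 fold changes in WT and AKO were −0.35 (SE 0.63) and −0.97 (SE 0.68) for Slc27a5 and −0.40 (SE 0.57) and 0.80 (SE 0.59) for Slc27a6, none of which passed the test, and their wide errors limit what could be seen at this depth.

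**Figure D2:**
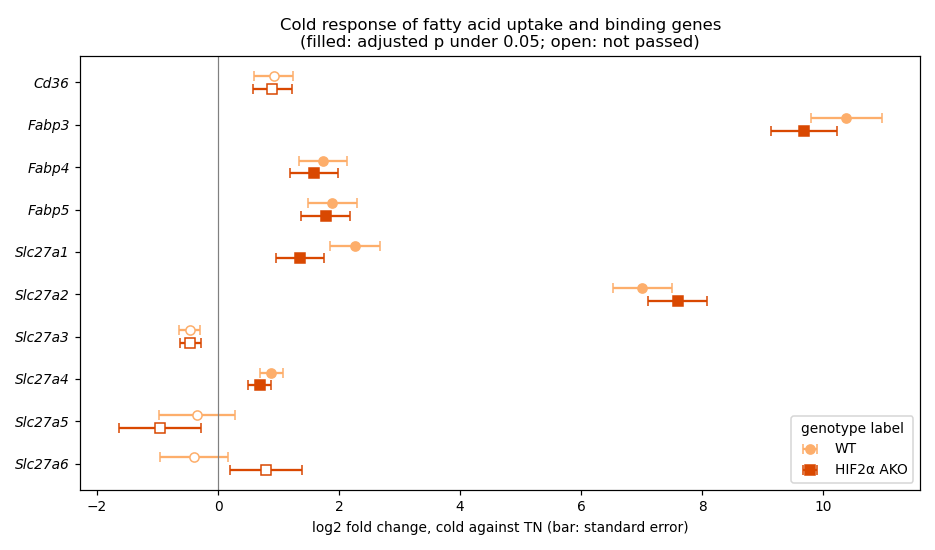
Log2 fold change in cold against TN with its standard error for each gene in WT (circles) and HIF2α AKO (squares), where filled symbols passed the adjusted limit of 0.05. Fabp3 and Slc27a2 lie at 10.39 and 7.01 in WT and at 9.68 and 7.60 in AKO, and the other called genes lie between 0.69 and 2.26.

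Counts were divided by exon length (RPKM) to compare levels between genes. Levels and their order depend on the length used, here that of exons from transcripts linked to RefSeq. With the exons of all annotated transcripts, Fabp4 has 4489 bases in place of 896, Fabp5 3567 in place of 987 and Slc27a1 5835 in place of 2795. Longer lengths would lower the levels of these genes. In TN WT, Fabp4 was highest at 4218 ± 2019 RPKM (SD, n = 3), then Cd36 at 409 ± 171, Fabp5 at 136 ± 54.3 and Slc27a1 at 122 ± 36.7 RPKM. The ranges of Fabp5 and Slc27a1 overlapped, and Slc27a4 (9.66 ± 1.56) and Slc27a3 (4.25 ± 0.674) followed without overlap. Slc27a6, Fabp3, Slc27a5 and Slc27a2 were all below 1 RPKM on average. In cold WT the order of levels was Fabp4 at 14004 ± 4342 RPKM, Cd36 at 775 ± 174, Slc27a1 at 584 ± 335, Fabp3 at 524 ± 167 and Fabp5 at 506 ± 148 RPKM. The ranges of the last 4 overlapped one another. Slc27a4 (17.8 ± 4.32) and Slc27a2 (15.9 ± 0.348) also overlapped. In cold AKO, Fabp3 averaged 1014 ± 322 RPKM beside Cd36 at 829 ± 114 RPKM, with overlapping ranges, and Slc27a2 at 32.5 ± 15.2 RPKM lay above Slc27a4 at 17.7 ± 1.54 RPKM in all 3 mice.

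**Figure D3:**
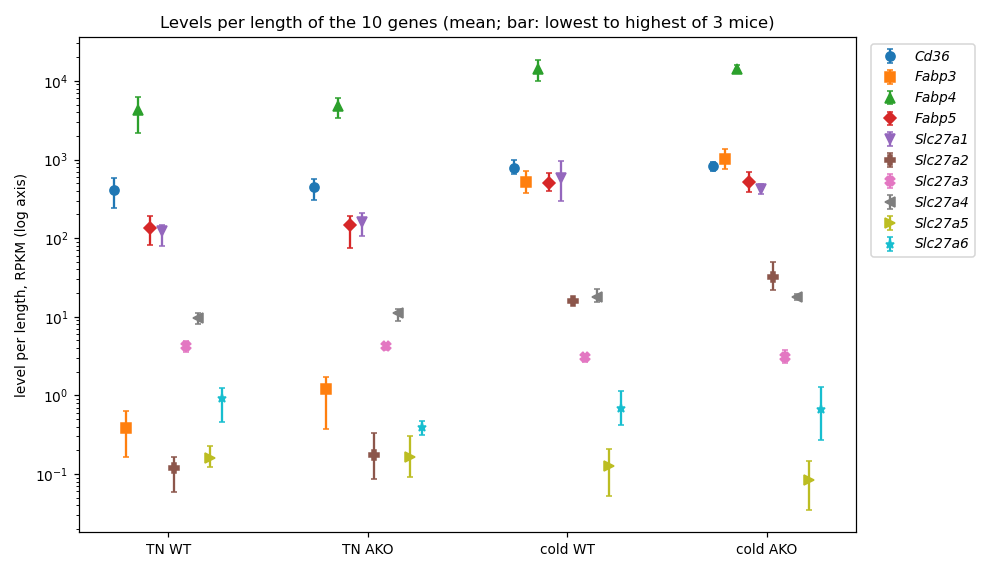
Level per length (RPKM, log axis) of the 10 genes in the 4 groups, as the mean and the lowest to highest of 3 mice. Lengths are those of exons from transcripts linked to RefSeq. Fabp4 is highest in each group, and Fabp3 moves from below 2 RPKM in every TN mouse to between 375 and 1378 RPKM in the cold mice, beside Cd36, Fabp5 and Slc27a1.

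The makeup of each family was also compared. Fabp4 made up 96.8 ± 0.344% (SD, n = 3) of the summed level per length of the FABP genes in TN WT and 92.7 ± 2.38% in cold WT, and 97.0 ± 0.721% and 90.4 ± 2.07% in TN and cold AKO. Fabp3 went from 0.0129 ± 0.0130% to 3.90 ± 2.27% in WT and from 0.0233 ± 0.0119% to 6.37 ± 1.37% in AKO. Fabp5 had a share near 3% in every group. Among the SLC27A genes, Slc27a1 held 88.5 to 92.9% on average in each group, and Slc27a2 went from 0.0826% on average to 3.07% (1.63 to 4.63% in single mice) in WT and from 0.0910% to 6.69% (5.46 to 8.98%) in AKO. For Fabp3, Fabp4 and Slc27a2, the shares in cold and TN mice did not overlap in either genotype (exact permutation test, two-sided, p = 0.1, which is the lowest value possible for 3 mice against 3). The shares depend on the gene length used. With the exons of all annotated transcripts, which lengthen Fabp4, Fabp3 held 16.3% in cold WT and 25.1% in cold AKO.

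None of the 10 genes passed the test in cold AKO against cold WT, where 0.00653% of all tested genes, a single gene, were called. At an unadjusted p under 0.05, 2 of the 10 differed, Fabp3 and Slc27a2, against 2.95% of all tested genes. These are also the genes with all cold AKO mice above all cold WT mice, which held for 3.8% of tested genes. Fabp3 was at 632 to 1134 CPM in cold AKO and 308 to 580 CPM in cold WT, a fitted log2 difference of 0.95 (SE 0.37, 95% interval 0.14 to 1.76, adjusted p = 1.00, edgeR). Slc27a2 was at 64.7 to 146 CPM and 45.4 to 47.4 CPM, a log2 difference of 1.03 (SE 0.33, 95% interval 0.31 to 1.76, adjusted p = 1.00, edgeR). The adjusted p with DESeq2 on the 6 cold libraries was 0.374 for Fabp3 and 0.235 for Slc27a2. By the limits the study used (an unadjusted p of 0.15 and a log2 fold change of 0.2 in size), both genes count as higher in cold AKO, as do 4.74% of all tested genes. Slc27a2 is also on a gene list that the study drew from these libraries, which is not independent evidence of its direction.

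Cold AKO mouse 1 had the highest Fabp3 and Slc27a2 of all libraries. It also had a muscle marker sum of 1722 CPM and the highest sum of the 8 thermogenic markers, at 8580 CPM against 5621 and 5885 CPM in the other cold AKO mice and 3349 to 4863 CPM in cold WT. Without that mouse the log2 difference was 0.67 for Fabp3 and 0.58 for Slc27a2. The part of the muscle and thermogenic markers in these differences was not tested.

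**Figure D4:**
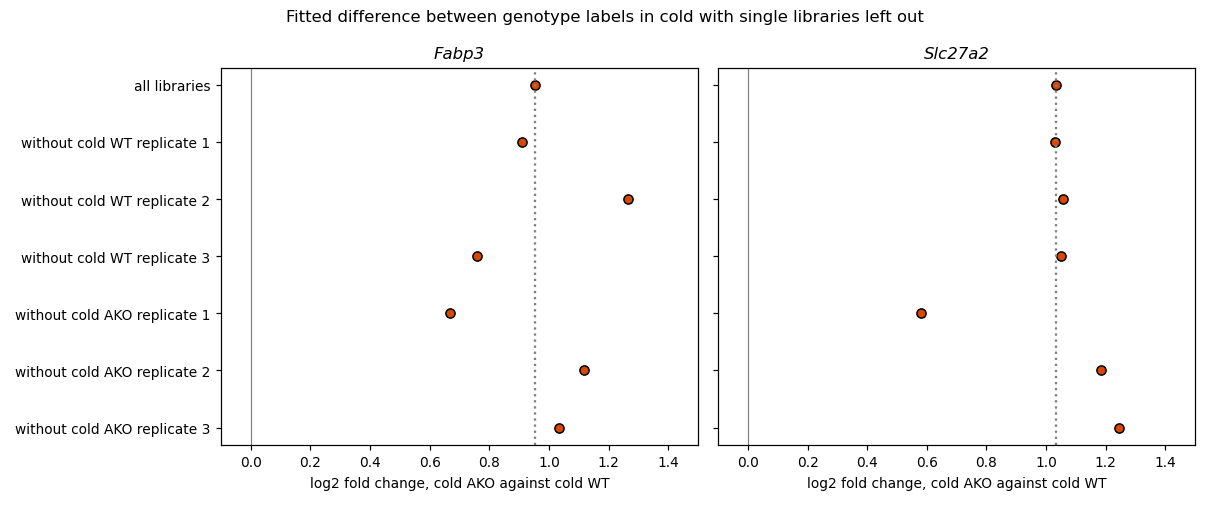
Fitted log2 difference between cold AKO and cold WT for Fabp3 and Slc27a2 with all libraries (dotted line) and with each cold library left out in turn. Values range from 0.67 to 1.26 for Fabp3 and from 0.58 to 1.24 for Slc27a2, lowest for both without cold AKO replicate 1.

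For the other 8 genes the difference between genotypes in cold did not pass. The log2 difference was 0.10 for Cd36 (95% interval −0.61 to 0.81), 0.02 for Fabp4 (−0.82 to 0.87) and 0.01 for Fabp5 (−0.85 to 0.88), edgeR. It was −0.49 for Slc27a1 (−1.35 to 0.38), where cold WT mouse 3 was the highest of all mice, and it was 0.06 without that mouse. For Slc27a4 the difference was −0.01 (−0.41 to 0.40), and for Slc27a3 0.01 (−0.38 to 0.41). For the barely expressed genes it was −0.59 for Slc27a5 (−2.16 to 0.98) and −0.04 for Slc27a6 (−1.31 to 1.23).

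At TN, none of the 10 genes passed in AKO against WT, where 0.00653% of tested genes were called, and none had groups without overlap, which 7.69% of tested genes had. Fabp3 alone had an unadjusted p under 0.05, as had 2.91% of tested genes (log2 difference 1.66, SE 0.61, adjusted p = 1.00, edgeR), at 4 to 15 counts in TN WT and 8 to 40 in TN AKO. Slc27a6 had a log2 difference of −1.24 (SE 0.58, adjusted p = 1.00, edgeR), with 2 of the 3 TN WT mice above all TN AKO mice.

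The test of the interaction of genotype and temperature called none of the 10 genes and none of the 15306 tested (0%), with edgeR, DESeq2 and limma voom alike. At an unadjusted p under 0.05 it held 0 of the 10 genes and 2.14% of all tested genes with edgeR. The largest interaction terms were 1.19 (SE 0.82) for Slc27a6, −0.90 (SE 0.56) for Slc27a1 and −0.70 (SE 0.71) for Fabp3 on the log2 scale. The term for Slc27a1 was −0.36 without cold WT mouse 3. A difference in the cold response of these genes between the genotypes was not detectable in these data.

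Some of the genes also varied together among mice of the same group. After each group's mean was taken off, log2 CPM of Cd36 had a Pearson r of 0.96 with Fabp4, 0.89 with Fabp5 and 0.87 with Slc27a4 over the 12 libraries. TN WT mouse 2 was the lowest TN WT mouse for all 4 genes, and its adipocyte marker sum was the lowest of all libraries. Fabp3 did not follow them, with r of −0.07 with Cd36 and −0.21 with Fabp4, where the few TN counts of Fabp3 enter. These are descriptions over libraries that share depth and scaling.

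The genes whose log2 CPM over the 12 libraries were most like each member's were taken from 13143 genes with a mean count of at least 50. For Fabp3 they were Dio2 (deiodinase, which makes active thyroid hormone), Ankrd9 and Ucp1 (the uncoupling protein of thermogenic fat), with r between 0.992 and 0.993. Since TN and cold libraries form separate clusters, the pooled r spans both, and with group means removed it was 0.68, 0.67 and 0.38. For Slc27a2 they were Phospho1, Slc4a4 and Slc25a34, with r of 0.63, 0.60 and 0.78 after group means were removed. TN libraries with few counts of Fabp3 and Slc27a2 enter these values. The genes most like Cd36 were Ppp2r5a, Bcs1l and Dbi (acyl-CoA binding protein), whose r stayed at 0.98, 0.99 and 0.98. Fabp4 was most like Inpp5a, Ppp1r1a and Cisd1, Fabp5 like Mocs2, Dynll2 and St3gal3, Slc27a1 like Katnal2, Glul and Mapk6, Slc27a4 like Trap1, Clpb and Golga2, and Slc27a3 like Sema6c, Commd7 and Rassf7.

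Other genes of fatty acid handling were taken as a list of 35, of which 34 were in the table and 28 were tested. In cold WT against TN WT, 12 were called higher and none lower, where 15.6% of all tested genes were called higher, and the median log2 fold change was 0.51 against −0.03 for all genes. In cold AKO against TN AKO, 13 were called higher and 1 lower, where 15.6% of all tested genes were called higher, with a median of 0.62 against −0.05 for all genes. None was called in either comparison of genotypes.

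In the capillary step, Lpl, the lipase that releases fatty acids from lipoproteins, rose by 1.37 in WT (log2, SE 0.36, adjusted p = 0.0236, edgeR) and by 1.14 in AKO (SE 0.36, adjusted p = 0.0399). It was at 2290 to 5102 CPM in TN WT and 6990 to 14074 CPM in cold WT. Gpihbp1, which anchors the lipase on endothelium, and Lmf1, its folding factor, also rose in both genotypes, while Angptl4, its inhibitor, had −0.48 in WT and 0.20 in AKO and did not pass. The summed level of 10 endothelial markers was 1059 to 1425 CPM in TN WT and 1285 to 1425 CPM in cold WT. It was 1106 to 1292 CPM in TN AKO and 1362 to 1508 CPM in cold AKO, without overlap. Of these markers, 0 were called in WT and 1 was called higher in AKO, where 15.6% of all tested genes were called higher. The part of endothelium in the values of these genes was not tested.

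Among other receptors, Vldlr, the very low density lipoprotein receptor, rose by 1.61 in WT and 1.85 in AKO, and Mfsd2a, a transporter of lysophospholipids, by 3.05 and 2.97, on the log2 scale. Mfsd2a was uneven in cold, at 27.5, 7.43 and 6.43 CPM in WT and 13.0, 4.86 and 20.8 CPM in AKO. Scarb1 was called higher in WT (0.50), and Got2, the mitochondrial aspartate aminotransferase that also goes by plasma membrane FABP, was called lower in AKO (−0.40). Cav1 and Cav2, caveolins, did not pass. Of the genes that act on CD36 palmitoylation, Zdhhc5 rose by 0.57 and 0.63 and Lypla1 by 0.71 and 0.79 in WT and AKO.

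Among acyl-CoA synthetases, Acsl1 rose by 2.03 in WT and 1.49 in AKO and Acsl3 by 1.14 and 1.07 (log2). Acsl4 was called in AKO (0.36). Acsl5 had 99.0 to 106 CPM in TN WT and 95.0 to 108 CPM in TN AKO. In cold it had 177, 131 and 136 CPM in WT and 377, 293 and 202 CPM in AKO, so that each cold AKO mouse exceeded each cold WT mouse. It was called in AKO (1.53, adjusted p = 0.000536, edgeR) and not in WT (0.52, adjusted p = 0.0724). Its difference between cold AKO and cold WT was 0.97 (SE 0.19, unadjusted p = 0.000377, adjusted p = 0.963, edgeR). The interaction term of Acsl5 was 1.00 (SE 0.27, unadjusted p = 0.00363, edgeR) and did not pass after adjustment. At an unadjusted p under 0.05 were 2.95% of all tested genes in cold AKO against cold WT and 2.14% in the interaction. Of the regulators, Ppara, a nuclear receptor for fatty acids, rose by 3.33 in WT and 2.98 in AKO. Pparg was called in WT (1.13) and Nrp1, a receptor for VEGF-B, in AKO (0.61), and whether the responses of these genes differ between genotypes was tested by the interaction, which called none.

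**Figure D5:**
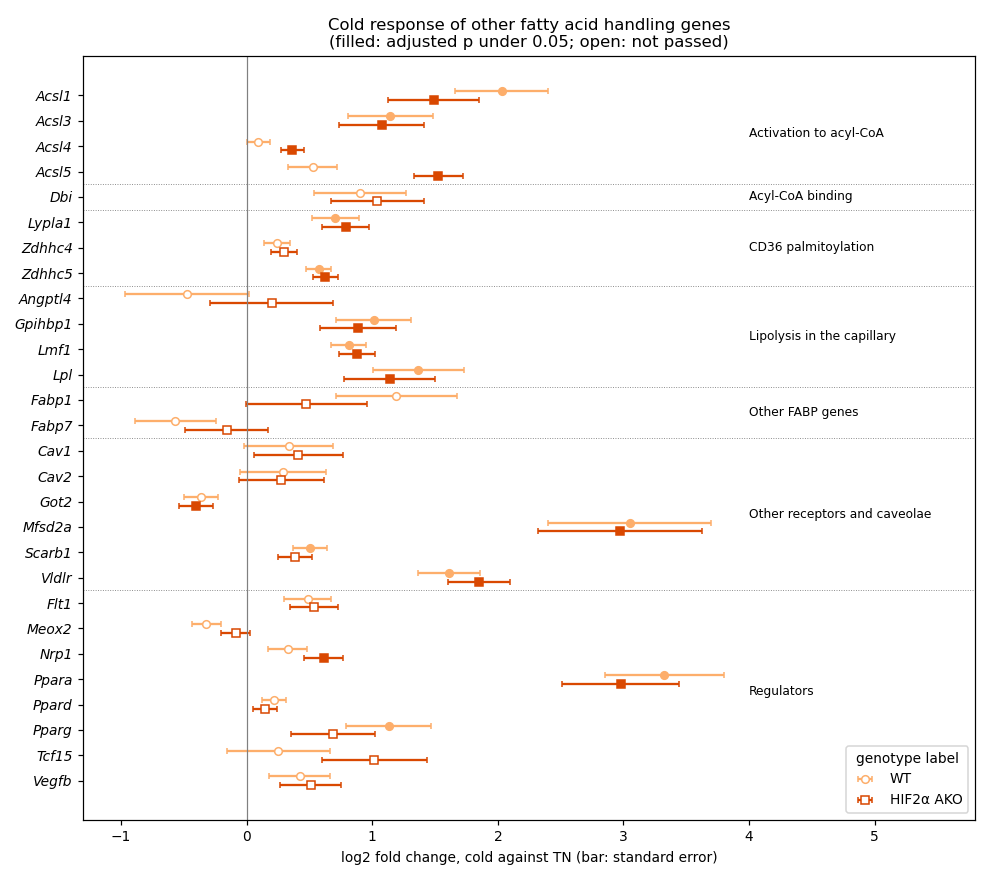
Log2 fold change in cold against TN with its standard error for the 28 tested genes of other fatty acid handling steps, by list, in WT (circles) and HIF2α AKO (squares), where filled symbols passed the adjusted limit of 0.05. Ppara and Mfsd2a lie highest, at 3.33 and 3.05 in WT, and Got2 is the gene called lower, at −0.40 in AKO.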

How the data were processed

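RNA-seq read counts of iWAT from 12 mice in 4 groups were analysed. The authors deposited whole read counts per gene. They trimmed reads with Trim Galore 0.4.4, aligned them with STAR 2.6.1d to GRCm38 and counted them with HTSeq 0.13.5. The annotation and the strand setting are not given in the sources used here. Tallies of reads not counted on a gene, 21.9 to 27.0% of the reads listed per library, were left out of totals and tests. They include reads aligned to several places. These were 4.40 to 5.71% of the reads listed in TN libraries and 6.30 to 9.33% in cold libraries, without overlap. The part of this difference in the values of the 10 genes was not tested.

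The software was edgeR 4.0.16 with limma 3.58.1, and DESeq2 1.42.0, under R 4.3.3. The filter on low counts was filterByExpr (minimum count 10, minimum total 15). Libraries were scaled by TMM (factors 0.829 to 1.20) and fitted with 1 factor of 4 groups by edgeR's quasi-likelihood method. Fold changes are from this fit, with SE taken as the log2 fold change over the root of F, and intervals at 95% from the fit's degrees of freedom. The code was tested on simulated data. Totals were 22368316 to 35204631 counts. Intervals give the uncertainty of a fitted difference between groups, which rests on the spread between these mice and on the counts. GENCODE gene models of GRCm38 gave positions and exon lengths, from transcripts linked to RefSeq. Replicate numbers came from the labels, which do not state separate litters or days, so p-values rest on the spread between these samples.

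The 10 genes, the other lists and the markers were chosen with earlier results of these data known. Named genes were the 10 genes, handling genes that passed in cold against TN in either genotype, checks, markers, and the 3 genes most like each member with a mean count of at least 50. Handling genes named without a pass, such as Angptl4, Cav1 and Cav2, were added after their values were seen. Alternatives were DESeq2 size factors, no filter on low counts, DESeq2, limma voom with sample quality weights, edgeR on the groups compared, a replicate block, leaving out each library, the study's thresholds and, chosen after seeing the data, another gene length.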

Additional observations from a re-analysis of the deposited data

How the results depend on the processing

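Without any one library, cold AKO against TN AKO called 3 to 7 of the 10 genes in place of 6, with 3 left without TN AKO replicate 1 or without cold AKO replicate 1 (Fabp4, Slc27a1 and Slc27a4 lost), and cold WT against TN WT called 6 to 7. In WT the count was 5 with edgeR on the groups compared, where Fabp4 was lost, and 8 with DESeq2 and with limma voom, which added Cd36 and Slc27a3. In AKO it was 7 with DESeq2 and with edgeR on the groups compared, which added Cd36, and 8 with limma voom, which added Cd36 and Slc27a3. Over all genes, cold WT against TN WT called 3259, 1752 with edgeR on the groups compared and 1381 to 3722 without single libraries, and cold AKO against TN AKO called 4138 and 1613 to 4853. Cold AKO against cold WT called 1 gene, 7 with DESeq2, 2 with limma voom, 0 with edgeR on the groups compared (445 at an unadjusted p under 0.05), and 1374 or 1515 by the study's thresholds with edgeR or with DESeq2 on the cold libraries, each with 2 of the 10 genes. TN AKO against TN WT called 1 gene, 11 with DESeq2, 2 with limma voom and 0 with edgeR on the groups compared (376 at an unadjusted p under 0.05). None of the 10 genes was called in either genotype comparison or the interaction by any of these fits at an adjusted p under 0.05.

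No called value changed direction under the alternatives run. Some uncalled values did, and the cause was not tested. With limma voom, Slc27a5 and Slc27a6 had 0.097 and 0.39 in cold WT against TN WT, Slc27a3 and Slc27a4 had −0.061 and 0.11 in cold AKO against cold WT, and Slc27a1, Slc27a2, Slc27a3 and Slc27a5 had −0.062, −0.35, −0.086 and −0.19 at TN. Slc27a4 in cold AKO against cold WT had 0.017 with DESeq2 size factors, 0.028 without the filter and 0.017 with DESeq2. Slc27a3 at TN had −0.017 without the filter and −0.0080 with edgeR on the groups compared. Leaving out single libraries gave ranges across 0. In cold AKO against cold WT these were −0.0050 to 0.30 for Cd36, −0.14 to 0.28 for Fabp4, −0.26 to 0.28 for Fabp5, −0.77 to 0.060 for Slc27a1, −0.15 to 0.14 for Slc27a3, −0.11 to 0.21 for Slc27a4, −1.21 to 0.0019 for Slc27a5 and −0.93 to 0.55 for Slc27a6. At TN they were −0.15 to 0.46 for Cd36, −0.14 to 0.56 for Fabp4, −0.14 to 0.44 for Fabp5, −0.41 to 0.81 for Slc27a2, −0.11 to 0.12 for Slc27a3 and −0.74 to 0.33 for Slc27a5. In cold against TN they were −0.93 to 0.027 for Slc27a5 in WT and −0.089 to 1.16 for Slc27a6 in AKO.

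Between libraries of the same replicate number, 5 of 18 correlations of deviations from group means exceeded 0.1 (range −0.43 to 0.39). Libraries of different numbers were not compared, so whether the numbers pair the samples was not tested. With the replicate block, 6, 6, 0, 0 and 0 of the 10 genes were called in cold against TN in WT and AKO, AKO against WT in cold and at TN, and the interaction, and the block turned Slc27a4 in cold AKO against cold WT to 0.018 and Slc27a5 at TN to −0.080.

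With the exons of all annotated transcripts as length, in TN WT, TN AKO, cold WT and cold AKO the share of Fabp3 was 0.0635, 0.115, 16.3 and 25.1%, that of Fabp4 95.5, 95.8, 79.7 and 71.4%, and that of Slc27a1 80.2, 83.3, 88.0 and 81.8%, and that of Slc27a2 was 0.122, 4.69 and 10.00% in TN WT, cold WT and cold AKO.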
